A study of Mus musculus with 18 samples.

Results

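The suppressors of cytokine signalling form a small family of intracellular inhibitors, in the mouse Socs1 to Socs7 and Cish. Every probe set of the array whose platform annotation gave 1 of these 8 symbols was taken as a member, which came to 24 of 45101 probe sets. No probe set named a member together with another gene. Socs1 and Cish had 1 probe set each, Socs5 had 2, Socs3 and Socs6 had 3, Socs4 and Socs7 had 4, and Socs2 had 6. The members were measured in macrophages grown from bone marrow for 7 days with CSF-1, and all groups shared the IL-10-/- genotype. The cells received 100 ng/ml LPS, the bacterial ligand of Toll-like receptor 4, plus 10 ng/ml IL-10, or 100 ng/ml LPS alone, for 10, 20 or 30 min. Each of the 6 groups held 3 arrays, taken from experiments 1, 2 and 3, which the labels describe as independent of each other and run in sequence with mice matched for age and sex. No untreated or wild-type cells were analysed here, so a change with time under LPS cannot be told apart from a change with time in culture.

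SOCS proteins carry an SH2 domain, which binds phosphorylated tyrosines on receptors and kinases, and a SOCS box, which recruits Elongin B, Elongin C and Cullin 5 to form a ubiquitin ligase. Socs1 and Socs3 also have a kinase inhibitory region that blocks Janus kinases directly. Some members, Cish and Socs3 among them, are switched on by the STAT factors they restrain, which closes a feedback loop. In macrophages Socs3 is a known STAT3 target downstream of the IL-10 receptor and limits signalling through gp130, the shared receptor of the IL-6 family.

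STAT factors bind palindromes of the form TTCNNNGAA, and the promoter windows of Socs3 and Cish are shown because they held such a match. The windows run from 250 bases before to 50 bases after the annotated start (RefSeq, GRCm38.p6) and were at hand for 4 members, Cish, Socs1, Socs3 and Socs4. The Socs3 stretch is chr11:117969502-117969530 on the minus strand, and its match begins 154 bases before the start. The Cish stretch is chr9:107296654-107296683 on the plus strand, and its 2 matches begin at bases 1 and 12 after the start. Capitals mark the matches.
Socs3: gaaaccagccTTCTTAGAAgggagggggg
Cish: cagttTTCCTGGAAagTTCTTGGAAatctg
The motif was present in 8.30% of 32851 such windows, and 0.457% held at least 2 matches. Searches on both strands for TTCNNNNGAA (6.95% of windows), the AP-1 motif TGANTCA (7.81%), the CRE motif TGACGTCA (1.79%), an NF-kB motif (8.46%) and an SRF CArG box (1.63%) found no match in the 4 windows. A match is a description of the letters and not a measured binding site.

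Signals were array intensities scaled to nearly the same trimmed mean on every array (499.2 to 500.1), so a change of total RNA per cell cannot be seen. Array medians ranged from 75.6 to 120.9. At 20 min the LPS arrays from experiments 2 and 3 were set off from the rest, with lower quartiles of 38.6 and 34 against 21.8 to 31.0 on the other 16 arrays, and IL-10 differences at 20 min are given with and without them here or in the closing section. Il10 had a signal between 602.1 and 3209.2 on all 18 arrays, which checks nothing about the genotype without wild-type arrays. All 10 macrophage markers measured were at or above the array median on all 18 arrays, as were 6 of 7 granulocyte and 3 of 4 stromal markers, against 0 of 3 B-cell, 0 of 5 T-cell, 0 of 3 erythroid and 0 of 4 dendritic markers. Short of all 18, Cd79b (B cell) reached the array median on 17 arrays, Cd8a (T cell) on 14 and Epor (erythroid) on 11. By contrast, 3 T-cell markers and 1 erythroid marker reached it on none. Whether other cells contributed to the signal of any member was not tested. A probe set was tested when it reached the array median on at least 3 arrays. This kept 27110 probe sets and 18 of the 24 members, and left out the only Socs1 probe set, 4 of Socs2 and 1 of Socs7. Differences are on the log2(signal + 16) scale with limma p-values adjusted over all 27110 probe sets, and a call means an adjusted p below 0.05. The blocked fit adds the experiment as a term. Members that passed the filter are not all members, and signals of different probe sets were not compared with each other.

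Socs3 was the only tested member with a called difference, and its IL-10 effect was called at 20 min. Its brightest probe set, 1455899_x_at, read 4596.6, 4857.5 and 5930.4 with LPS plus IL-10 at 20 min in experiments 1, 2 and 3, against 692.6, 1119.8 and 840.6 with LPS. The groups did not overlap, and the LPS plus IL-10 signal was 6.64, 4.34 and 7.05 times that of LPS within the 3 experiments. The log2 difference was 2.53 (SE 0.30, 95% interval 1.91 to 3.16, limma adjusted p = 0.00503, blocked adjusted p = 0.000137), higher in 3 of 3 experiments. In bulk RNA a change in the share of responding cells and a change per cell cannot be told apart.

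The other Socs3 probe sets gave the same direction at 20 min with wider spread. Probe set 1456212_x_at read 2966.9, 4414.3 and 5993.3 with LPS plus IL-10, against 725.8, 1291.1 and 717.3 with LPS (log2 difference 2.27, limma adjusted p = 0.134, blocked adjusted p = 0.00018). Probe set 1416576_at read 2170.5, 3673.3 and 3248.4, against 539.1, 1550.6 and 720.0 with LPS (1.79, limma adjusted p = 1.00, blocked adjusted p = 0.00585). Neither pair of groups overlapped. Thus 1 of 18 tested member probe sets was called higher at 20 min (0.00738% of all tested probe sets), and 3 of 18 with the experiment as a block (0.0184%), all of them Socs3. Without both LPS arrays that stood apart, which leaves 1 LPS array at 20 min, the difference of Socs3 1455899_x_at was 2.85 (limma adjusted p = 0.108, blocked fit 2.77 with adjusted p = 0.00809). Without the experiment 3 array alone it was 2.51 (limma adjusted p = 0.0528, blocked fit 2.57 with adjusted p = 0.000904). Without both, Socs3 1456212_x_at was 2.07 in the blocked fit (adjusted p = 0.0275), and Socs3 1416576_at was no longer called by it (1.94, adjusted p = 0.0966).

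At 30 min the Socs3 signal under LPS plus IL-10 was higher still, and the signal with LPS was above its 10 min level. Probe set 1455899_x_at read 10529.9, 11388.3 and 10700.8 with LPS plus IL-10, against 1827.1, 3468.7 and 1291.8 with LPS (means 10873 ± 454 and 2196 ± 1134, SD, n = 3). The LPS plus IL-10 arrays lay close together, whereas the LPS array of experiment 2 was well above the other LPS arrays. The log2 difference was 2.42 (SE 0.30, 95% interval 1.79 to 3.05, limma adjusted p = 0.00464, blocked adjusted p = 9.15e-05). Within experiments the ratio of LPS plus IL-10 to LPS was 5.76, 3.28 and 8.28.

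Probe set 1456212_x_at of Socs3 read 6836.2, 9557.7 and 8816.5 at 30 min with LPS plus IL-10, against 1390.6, 3541.9 and 1554.0 with LPS (log2 difference 2.07, limma adjusted p = 0.185, blocked adjusted p = 0.000283). Probe set 1416576_at read 6439.7, 8008.2 and 8105.9, against 883.5, 2749.0 and 924.4 with LPS (2.50, limma adjusted p = 0.185, blocked adjusted p = 9.15e-05). On all 3 probe sets experiment 2 had the highest LPS signal at 30 min, and the treatment groups did not overlap. The calls at 30 min were 1 of 18 member probe sets without the block (0.0111% of all tested) and 3 of 18 with it (0.0443%), again all Socs3. Without experiment 1 no member was called at 20 or at 30 min by either fit. The difference of Socs3 1455899_x_at was then 2.45 at 20 min and 2.37 at 30 min, with blocked adjusted p = 0.0991 and 0.0893. Leaving out any 1 of the 3 experiments without the block also left no member called at either time (Socs3 1455899_x_at 2.40 to 2.75 at 20 min and 2.11 to 2.78 at 30 min).

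At 10 min no effect of IL-10 on Socs3 was detected. Probe set 1455899_x_at read 409.8, 569.9 and 642.6 with LPS plus IL-10, against 670.1, 587.9 and 401.7 with LPS. The groups overlapped, and the order of the treatments turned between experiments, lower with IL-10 in experiment 1 and higher in experiment 3. The log2 difference was -0.02 (95% interval -0.65 to 0.60, limma adjusted p = 1.00). The difference was -0.06 for 1456212_x_at and 0.41 for 1416576_at, where the interval reached 1.38. No member and no other tested probe set was called at 10 min in either direction by limma with or without the block (0.0%). An unadjusted limma p below 0.05 was reached by 309 of 27110 probe sets without the block and by 970 with it.

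**Figure D1:**
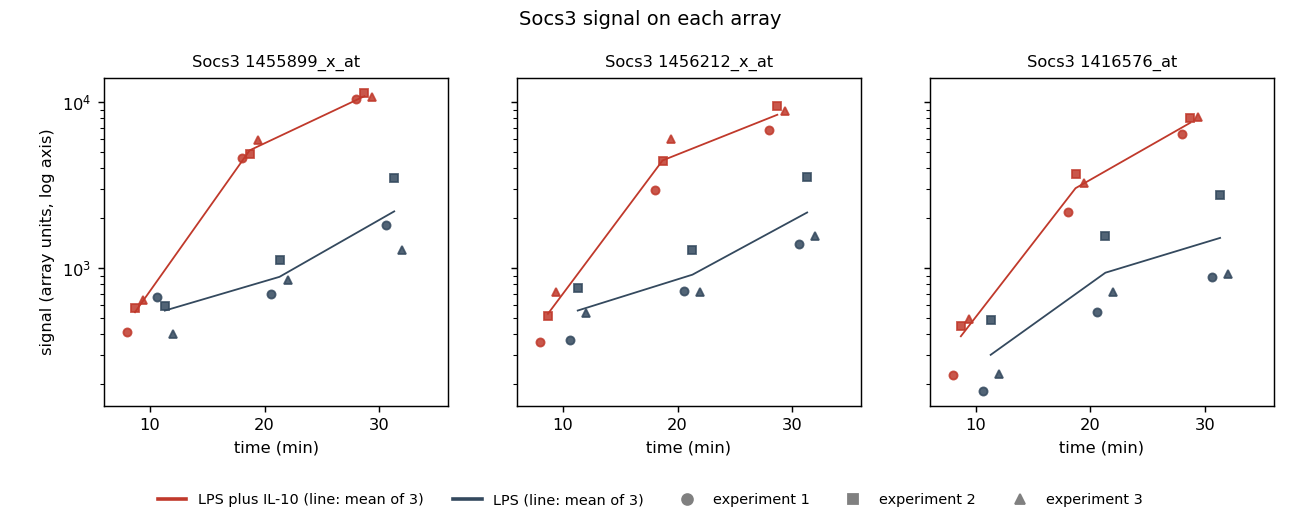
Socs3 signal (array units, log axis) on each of the 18 arrays against time in min, 1 panel per probe set, with red for LPS plus IL-10, blue for LPS, a marker for each experiment (shifted sideways for visibility) and lines through the means of 3. The colours mix at 10 min and separate at 20 and 30 min on all 3 probe sets, and the LPS square of experiment 2 is the highest LPS point at 20 and 30 min.

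Socs3 rose with time under LPS plus IL-10. Under LPS plus IL-10 the signal of 1455899_x_at at 30 min was 25.7, 20.0 and 16.7 times that at 10 min in experiments 1, 2 and 3, and the signal at 20 min was already 43.7, 42.7 and 55.4% of that at 30 min. The log2 difference was 3.22 for 20 against 10 min (limma adjusted p = 0.000169) and 4.31 for 30 against 10 min (limma adjusted p = 2.17e-06), with the same 10 min arrays in both. The step from 20 to 30 min was 1.09 and was not called (limma adjusted p = 1.00, blocked adjusted p = 0.223), although the groups did not overlap.

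The other Socs3 probe sets followed the same course under LPS plus IL-10. For 20 against 10 min the difference was 3.03 on 1456212_x_at (limma adjusted p = 0.00532) and 2.95 on 1416576_at (limma adjusted p = 0.0539, blocked adjusted p = 5.82e-06). For 30 against 10 min it was 3.99 and 4.29 (limma adjusted p = 0.000117 and 0.000339). Calls among the 18 member probe sets were 2 for 20 against 10 min (0.0111% of all tested called higher, 3 members and 0.0332% with the block) and 3 for 30 against 10 min (0.0443%, and 3 members and 0.195% with the block, beside 0.0295% called lower, with no member). Without experiment 1 and without the block no member was called for 20 against 10 min (Socs3 1455899_x_at 3.12, limma adjusted p = 0.191).

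Under LPS alone a rise of Socs3 was called for 30 against 10 min. Probe set 1455899_x_at at 30 min was 2.73, 5.90 and 3.22 times its level at 10 min, with no overlap between the times. The log2 difference was 1.87 (SE 0.30, limma adjusted p = 0.0496, blocked adjusted p = 0.000926), close to the threshold without the block and lost under several settings given in the closing section. The changes of normalisation, pseudocount and intensity trend among those settings were run without the block only. The difference was 1.86 on 1456212_x_at and 2.19 on 1416576_at, both called by the blocked fit (blocked adjusted p = 0.000595 and 0.000205) and not without it (limma adjusted p = 0.439 and 0.617). That made 1 of 18 members called higher (0.0184% of all tested), and 3 of 18 with the block (0.107%).

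Between 10 and 20 min of LPS the difference of Socs3 1455899_x_at was 0.66 (limma adjusted p = 1.00, blocked adjusted p = 0.466). On 1416576_at it was 1.57, called by the blocked fit (blocked adjusted p = 0.0394), which made 1 of 18 members (0.0148% of all tested, against 0.0% and 0 members without the block). This rests in part on the arrays that stood apart. Without both of them the blocked value of Socs3 1416576_at was 1.42 with an adjusted p of 0.381. For 30 against 20 min of LPS the 3 Socs3 differences were 1.20, 1.16 and 0.62, and none was called by either fit (lowest blocked adjusted p = 0.0979). Without both arrays and without the block the difference of Socs3 1455899_x_at was 0.35 for 20 against 10 min and 1.52 for 30 against 20 min, also not called. These values rest on the LPS array of experiment 1 alone at 20 min. Within experiment 1 the LPS signal at 20 min was 1.03 times that at 10 min, and at 30 min 2.64 times that at 20 min.

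Set side by side, the LPS arrays at 30 min held 17.4, 30.5 and 12.1% of the 1455899_x_at signal of the LPS plus IL-10 arrays at 30 min, and 39.7, 71.4 and 21.8% of that at 20 min. In all 3 experiments 30 min of LPS alone gave less Socs3 signal than 20 min of LPS plus IL-10.

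The growth of the IL-10 effect was tested as a difference of differences. From 10 to 20 min it grew by 2.56 on 1455899_x_at, by 2.33 on 1456212_x_at and by 1.38 on 1416576_at. The first pair passed with the block (both blocked adjusted p = 0.0175) and not without it (limma adjusted p = 0.360 and 1.00). From 10 to 30 min the growth was 2.45, 2.13 and 2.09, with blocked adjusted p = 0.0171, 0.0377 and 0.0503. This gave 2 of 18 members called in each comparison with the block (0.00738% and 0.0184% of all tested) and 0 without it (0.0% and 0.00369%). Without experiment 1 no member was called for either growth with the block (Socs3 1455899_x_at 2.14 to 20 min, adjusted p = 0.794, and 2.07 to 30 min, adjusted p = 1.00). Without experiment 2 none was called for the growth to 20 min (2.76, blocked adjusted p = 0.111) and 1 for that to 30 min, where 1455899_x_at was 2.79 (blocked adjusted p = 0.0664). Without both LPS arrays that stood apart the blocked growth of 1455899_x_at to 20 min was 2.80 (adjusted p = 0.0402). From 20 to 30 min the IL-10 effect on the log2 scale moved by -0.11, -0.20 and 0.71, and no member was called (0.0%).

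The Socs3 probe sets varied together across the arrays. Over the 18 arrays the Pearson correlation was 0.980 between 1455899_x_at and 1456212_x_at, 0.964 between 1455899_x_at and 1416576_at, and 0.981 between the remaining pair, as a description of arrays that share the same group differences. The suffix _x_at marks probes that may also match other sequences, and 1416576_at does not carry it. Averaged over the 3 times, the IL-10 effect was 1.64 on 1455899_x_at (limma adjusted p = 0.000503), 1.43 on 1456212_x_at (limma adjusted p = 0.0489) and 1.56 on 1416576_at (limma adjusted p = 0.0989, blocked adjusted p = 2.27e-05). Hence 2 of 18 members were called on average (0.0111% of all tested called higher), and 3 of 18 with the block (0.0332%). Without experiment 1 or experiment 3, and without the block, none was called on average (Socs3 1455899_x_at 1.71 and 1.38, limma adjusted p = 0.197 and 0.305).

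Beyond Socs3, the 15 other tested member probe sets gave no call in any of the 13 comparisons by either fit, where 0.0% to 0.195% of all tested probe sets were called higher per comparison. A list of 15 with no call is near that background. Their IL-10 differences ran from -0.42 to 0.49 at 10 min, from -0.49 to 0.49 at 20 min and from -0.31 to 0.52 at 30 min, with medians of -0.10, 0.02 and 0.04. Without both LPS arrays that stood apart the 20 min range was -0.83 to 0.94 (median 0.22) without the block. With the block it was -0.61 to 0.73 (median 0.07), and neither fit gave a call. The only LPS array then left at 20 min is that of experiment 1, so the fit without the block also holds differences between experiments. At 30 min 9 of the 15 were higher with IL-10. The lowest blocked adjusted p of any of them in any comparison was 0.253. The 95% intervals at 30 min spanned -1.13 to 1.50 over the set, so changes of that size are not excluded for the dimmer probe sets.

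**Figure D2:**
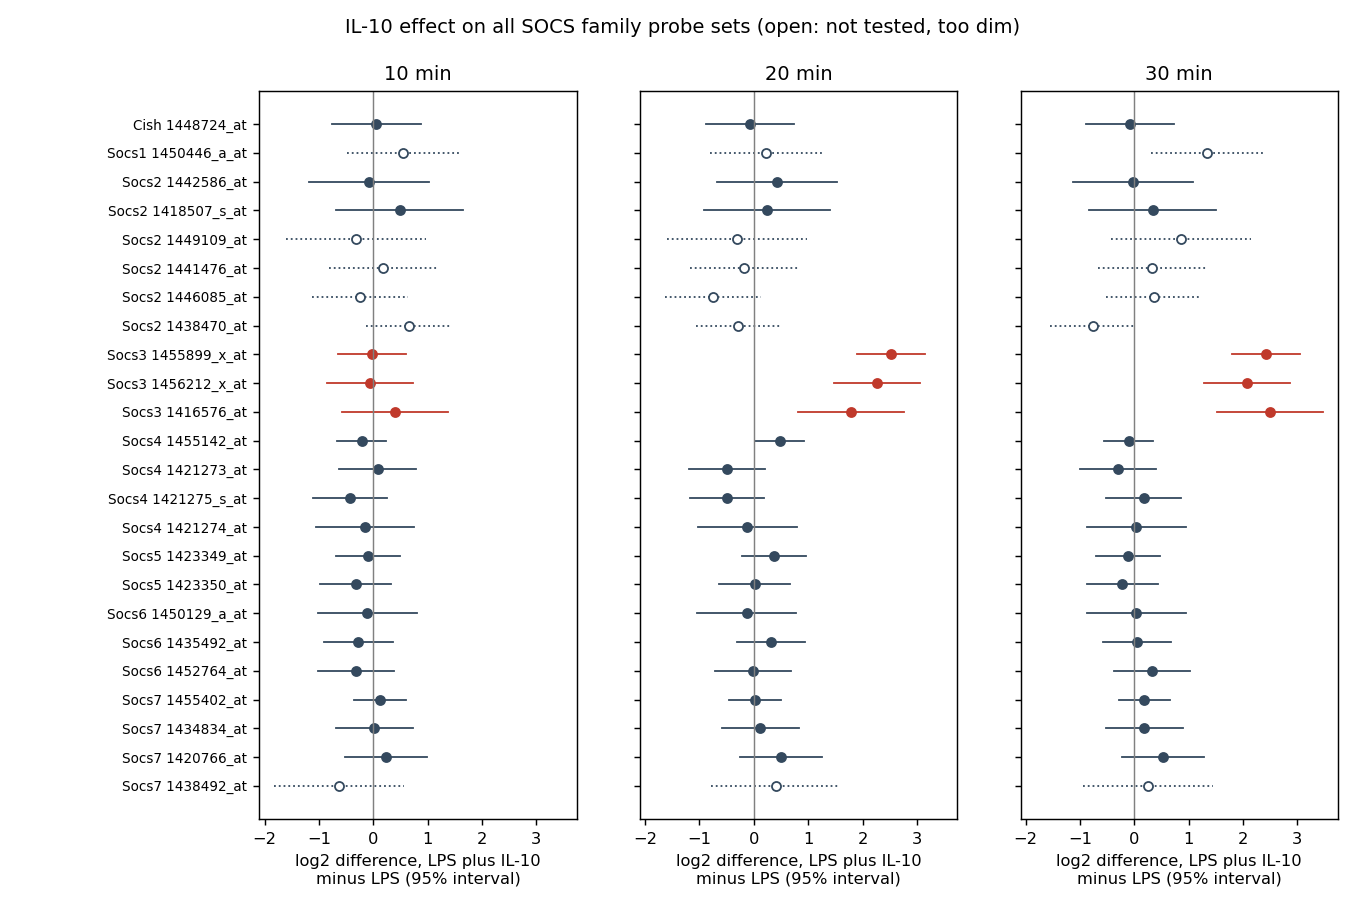
Log2 difference, LPS plus IL-10 minus LPS, of all 24 member probe sets at 10, 20 and 30 min with 95% intervals from the fit without the block. Socs3 is red, and open points on dotted lines are the 6 probe sets too dim to be tested. The 3 Socs3 intervals lie above 0 at 20 and 30 min and cover 0 at 10 min.

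Socs1, the member closest to Socs3 in structure and an inhibitor of interferon signalling, was near the bottom of the intensity range. Its probe set 1450446_a_at was below the array median on 17 of 18 arrays and was not tested. At 30 min it read 26.3, 64.2 and 116.6 with LPS plus IL-10, against 7.5, 22.3 and 14.6 with LPS. The groups did not overlap, and IL-10 was higher in 3 of 3 experiments, with the highest reading in experiment 3. In a fit without the filter the log2 difference was 1.34 (95% interval 0.31 to 2.38), which did not pass adjustment (limma adjusted p = 1.00 with and without the block). At 20 min it read 31.4, 9.5 and 33.2, against 15.8, 12.9 and 24.4 with LPS, and at 10 min 40.8, 15.7 and 45.5, against 12.5, 2.7 and 49.7 with LPS, and the groups overlapped at both times. No detection calls were used, so such readings cannot be told from background.

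Cish, a STAT5-induced inhibitor of cytokine receptors and the gene with both motif matches shown above, was above the array median on all 18 arrays. At 30 min its probe set 1448724_at read 143.3, 137.1 and 120.4 with LPS plus IL-10, against 115.6, 133.1 and 184.8 with LPS. The groups overlapped (log2 difference -0.08, 95% interval -0.89 to 0.73, limma adjusted p = 1.00). At 20 min it read 128.9, 251.2 and 228.2, against 93.9, 348.0 and 260.9 with LPS, and the groups overlapped (log2 difference -0.08). Without both LPS arrays that stood apart, which hold the 348.0 and 260.9, the difference of Cish without the block was 0.94 and was not called. That value sets the LPS plus IL-10 arrays of 3 experiments against the LPS array of experiment 1 alone. Cish lay 0.67 and 0.39 higher in experiments 2 and 3 than in experiment 1 on the log2 scale. Within experiment 1 it read 128.9 with LPS plus IL-10 at 20 min, against 93.9 with LPS. The lowest reading of all 18 arrays, 93.9, and the highest, 348.0, were both LPS arrays at 20 min.

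Socs2, a regulator of growth hormone signalling, had 2 tested probe sets, and both hovered around the array median. Probe set 1442586_at read 63.7, 84.2 and 88.4 with LPS plus IL-10 at 30 min, against 65.8, 62.8 and 121.8 with LPS, and the groups overlapped. The 4 untested Socs2 probe sets did not exceed a signal of 93.1 on any array. At 30 min 3 of them were higher and 1 lower with IL-10 in the fit without the filter. The 2 tested probe sets correlated at 0.258 over the arrays.

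Socs4 and Socs5 form a pair with long amino-terminal regions that are linked to the control of the epidermal growth factor receptor. The brightest Socs4 probe set, 1455142_at, read 901.2, 1191.3 and 1023.0 with LPS plus IL-10 at 20 min, against 730.8, 568.5 and 962.6 with LPS. IL-10 was higher in 3 of 3 experiments but the groups overlapped, and the difference of 0.48 was not called (limma adjusted p = 1.00, blocked adjusted p = 0.595). Without both LPS arrays that stood apart it was 0.49 in the fit without the block, against the LPS array of experiment 1 alone. At 30 min the same Socs4 probe set differed by -0.10.

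The Socs4 probe sets did not move together. Over the 18 arrays 1455142_at correlated at -0.468 with 1421273_at, at -0.512 with 1421275_s_at and at 0.196 with 1421274_at. Probe set 1421275_s_at was 0.74 higher at 30 than at 10 min of LPS plus IL-10, the largest difference of any member other than Socs3 in that comparison, and was not called (limma adjusted p = 1.00, blocked adjusted p = 0.580). The Socs5 probe sets correlated at 0.572. Socs5 1423349_at read 567.6, 247.1 and 450.4 with LPS plus IL-10 at 30 min, against 427.7, 376.5 and 515.1 with LPS, and the groups overlapped (log2 difference -0.12).

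Socs7, an adaptor that binds SH3-domain proteins, had 1 probe set whose groups separated without passing the test. Probe set 1420766_at read 137.2, 123.8 and 116.4 with LPS plus IL-10 at 30 min, against 77.6, 87.9 and 82.9 with LPS. The groups did not overlap, but the spread of this probe set over the other groups was wide and the difference of 0.52 was not called (95% interval -0.24 to 1.28, limma adjusted p = 1.00, blocked adjusted p = 1.00). The 2 brighter Socs7 probe sets, 1455402_at and 1434834_at, correlated with each other at 0.817 and with 1420766_at at 0.112 and -0.0243. They differed by 0.18 each at 30 min.

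Socs6, which binds the insulin receptor and the receptor Kit, gave no call in any comparison. The brightest probe set, 1450129_a_at, read 1108.6, 1154.2 and 635.2 with LPS plus IL-10 at 30 min, against 1027.1, 1027.2 and 713.6 with LPS (log2 difference 0.04, 95% interval -0.88 to 0.95). Experiment 3 was low under both treatments.

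**Figure D3:**
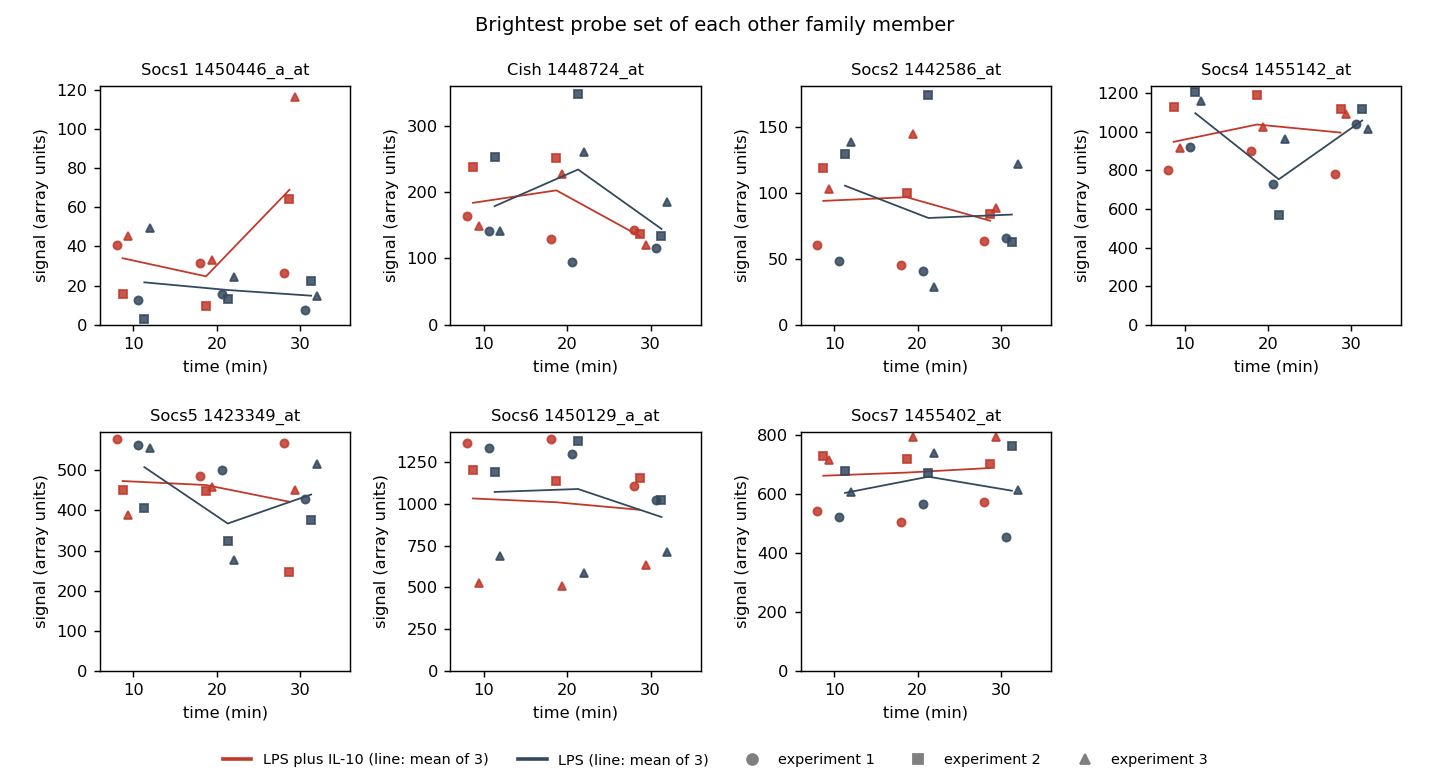
Signal (array units, axes from 0) against time in min for the brightest probe set of each member other than Socs3, with red for LPS plus IL-10, blue for LPS, a marker for each experiment and lines through the means of 3. Red and blue points overlap at nearly every time, and the exception at 30 min is Socs1, with signals between 7.5 and 116.6 at that time.

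Most tested member probe sets differed between experiments. Socs6 1450129_a_at had signals of 506.1 to 713.6 on the 6 arrays of experiment 3, against 1027.1 to 1388.6 in experiment 1 and 1027.2 to 1380.7 in experiment 2. Experiment 3 overlapped with neither, and lay 1.02 below experiment 1 on the log2 scale (F test of the experiment term in the blocked fit, limma adjusted p = 2.93e-07). Another Socs6 probe set behaved otherwise, since 1435492_at was higher in experiment 2 (505.8 to 615.0) than in experiment 1 (254.5 to 431.5), while experiment 3 lay at 366.5 to 509.3. These Socs6 probe sets correlated at 0.0950, and 1435492_at and 1452764_at at -0.596.

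Socs7 1455402_at was low in experiment 1 (456.2 to 572.5), against 670.8 to 764.2 in experiment 2 and 609.3 to 794.5 in experiment 3, and 1434834_at was also lowest by median in experiment 1. Socs2 1418507_s_at was high in experiment 2 (103.3 to 164.8), against 28.3 to 72.8 in experiment 1 and 35.4 to 98.3 in experiment 3. In all, 13 of 18 member probe sets differed between experiments, as did 51.6% of all 27110 tested probe sets, so such differences were common on these arrays. Socs3 1416576_at and 1456212_x_at were among them (F test, limma adjusted p = 0.000204 and 0.00189) and 1455899_x_at was not (limma adjusted p = 0.155). The experiment test was added after the values had been seen.

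**Figure D4:**
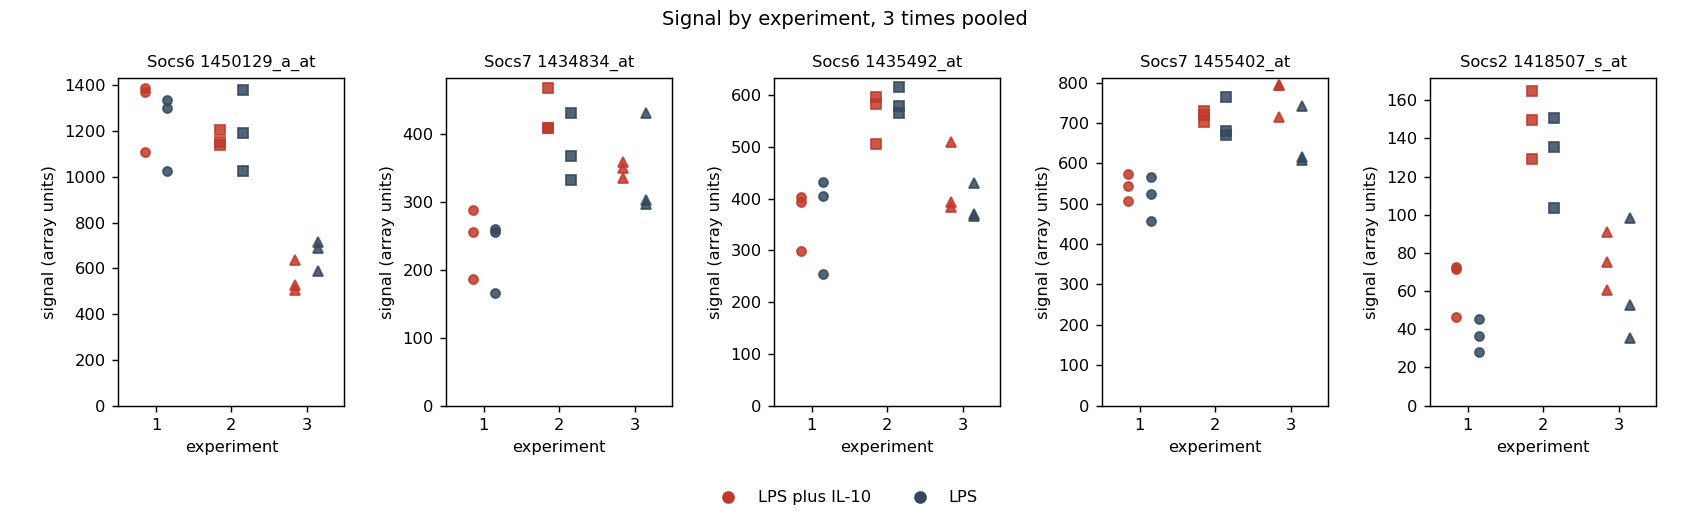
Signal (array units, axes from 0) of 5 member probe sets by experiment, those other than Socs3 with the lowest adjusted p of the experiment term, with the 3 times of each treatment shown as separate points, red for LPS plus IL-10 and blue for LPS. For Socs6 1450129_a_at the 6 points of experiment 3 lie between 506.1 and 713.6, below all points of experiments 1 and 2.

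Genes whose products work with SOCS proteins were set beside the family, with 0.0% to 0.195% of all tested probe sets called higher per comparison as the background, so lists of this size with no call are near it. The list of IL-10 receptor, Janus kinases and STATs had 12 of 13 genes measured and no call in any comparison by either fit. At 30 min Stat3, the factor downstream of the IL-10 receptor, differed by 0.07, the kinase gene Jak1 by -0.05 and the receptor chain gene Il10rb by 0.02. The list median was 0.04, against -0.00 for all 12527 genes. Averaged over the times, 12 of 12 genes of this list were higher with IL-10 (median 0.06), against 51.3% of all genes. At 10, 20 and 30 min 6, 9 and 8 of the 12 were higher. The direction of the list was not tested.

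Partners and targets of the family gave no call either, which is again near that background. No gene was called in any comparison among 20 of 21 receptors restrained by SOCS proteins, 6 of 8 ubiquitin ligase partners, 19 of 28 other SOCS box proteins and all 14 other negative regulators of JAK-STAT signalling. At 30 min the list medians were -0.01, 0.04, -0.07 and -0.02. The Elongin genes Elob and Eloc, whose products bind the SOCS box, differed by 0.00 and 0.27. The largest of the brightest 4 genes per list in the other direction was Wsb1, a SOCS box ubiquitin ligase subunit, at -0.29. The phosphatase gene Ptpn6, whose product removes phosphate from Janus kinases, and the interferon gamma receptor gene Ifngr1 each differed by -0.05.

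Early STAT3 target genes gave calls beside Socs3. At 30 min 16 of 20 measured were higher with IL-10 (median 0.25, against 49.0% of all 12527 genes higher and a median of -0.00). Only Sbno2, a co-repressor gene, was called without the block (1439349_at, log2 difference 2.51, limma adjusted p = 7.24e-05), 1 of 20 genes beside 0.0111% of all tested probe sets. The blocked fit added 4 more, beside 0.0443% of all tested probe sets, the repressor gene Etv3, the transcription factor gene Irf1 (1.03, blocked adjusted p = 0.00801), the metallothionein gene Mt1 and the stress gene Gadd45g (1.70, blocked adjusted p = 0.00261). The Mt1 call came from the dim probe set 1451612_at (means 434.4 with LPS plus IL-10 and 110.4 with LPS, log2 difference 1.86, blocked adjusted p = 0.0142). The bright Mt1 probe set 1422557_s_at averaged 9297 and 7566, a difference of 0.30 that was not called (blocked adjusted p = 1.00). Etv3 and Sbno2 were also uneven over their probe sets, from 0.16 to 1.39 over 4 of Etv3 and from 0.50 to 2.51 over 4 of Sbno2. Between 10 and 30 min of LPS plus IL-10 3 of the 20 rose without the block (Sbno2, Mt1 and Etv3), beside 0.0443% of all tested probe sets called higher. With the block 7 did, adding Pim1, Mt2, Irf1 and Gadd45g, beside 0.195%. Under LPS alone none was called by either fit at 20 or 30 min against 10 min. A gene counted as called when any of its tested probe sets was. The counts per gene and the shares of probe sets therefore differ in unit. The list was chosen with results of these data known, so its direction is no independent evidence.

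The genes whose signal tracked Socs3 1455899_x_at most closely over the 18 arrays were Etv3 on 1456358_at (Pearson 0.948), Mt1 on 1451612_at (0.917), the stress-response gene Ier3 (0.897), Sbno2 on 1458308_at (0.892) and Zfp36 (0.807), whose product speeds mRNA decay. With each experiment centred the values were 0.978, 0.933, 0.899, 0.902 and 0.916. By Spearman correlation Ccl3 and Gm6377 stood among the first 5 in place of Sbno2 and Zfp36. The arrays fall into the same 6 groups for every gene, so any gene that moves with time and IL-10 scores high.

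Etv3 1456358_at illustrates the likeness. At 30 min it read 2346.3, 2597.4 and 2049.4 with LPS plus IL-10, against 913.1, 1267.9 and 577.0 with LPS, and as for Socs3 the LPS array of experiment 2 was the highest of the LPS arrays. At 10 min it read 552.7, 693.6 and 489.6, against 659.5, 725.2 and 388.4 with LPS, where the groups overlapped. Ier3 differed from this pattern, since it was high with LPS alone too, at 10550.3, 12683.8 and 12930.5 with LPS plus IL-10 at 30 min against 7109.6, 10287.6 and 7983.5 with LPS.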

How the data were processed

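Per the submitters' processing notes, the authors made the deposited intensities with GCOS 1.4. They are on a linear scale, and the settings behind them are not stated. Symbols came from the platform annotation. Control probe sets (64) were left out, and log2(signal + 16) of all 18 arrays was fitted by limma (version 3.58.1, run under R 4.3.3) with an empirical Bayes variance that followed intensity. A probe set was tested where at least 3 arrays reached the array median. The model had 1 coefficient per group and 12 residual degrees of freedom. In each of 13 comparisons two-sided p-values were adjusted by Benjamini-Hochberg over 27110 probe sets. The scripts were tested on simulated data. The 3 arrays per group limit the precision.

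The replicate number pairs the samples, since the labels make it an independent experiment. Deviations from group means also correlated better within a number (0.201 to 0.642, 45 pairs) than between numbers (-0.471 to 0.0651, 90 pairs). The blocked fit therefore stands beside results it changes, because the fit without a block counts differences between experiments as spread. Among 153 pairs of arrays no more than 104 values were identical. Members and gene lists were chosen with earlier results of these data known. The text names all members, the 5 genes most like a called member by Pearson correlation, called genes of each list, and up to 4 further bright genes per list.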

Additional observations from a re-analysis of the deposited data

Results flagged for a closer look

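The IL-10 effect on Socs3 differed between times by a test of the difference itself, and only with the experiment as a block. From 10 to 20 min it grew by 2.56 on Socs3 1455899_x_at and by 2.33 on Socs3 1456212_x_at (both blocked adjusted p = 0.0175). From 10 to 30 min it grew by 2.45 on 1455899_x_at and by 2.13 on 1456212_x_at (blocked adjusted p = 0.0171 and 0.0377). Without the block none of the 4 passed (limma adjusted p = 0.303 to 1.00). On the remaining Socs3 probe set, 1416576_at, the growth was 1.38 and 2.09 and did not pass with the block (blocked adjusted p = 0.346 and 0.0503). With the block, no member was called for either growth without experiment 1, and none for the growth to 20 min without experiment 2.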

How the results depend on the processing

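No called value changed sign under any alternative run. With the experiment as a replicate block, the SOCS family probe sets called, of 18 tested, were 3 for IL-10 at 20 min, 3 at 30 min, 3 for LPS at 30 against 10 min, 1 for LPS at 20 against 10 min, and 2 for each growth of the IL-10 effect from 10 min. The growth on Socs3 1455899_x_at was 2.56 to 20 min and 2.45 to 30 min (blocked adjusted p = 0.0175 and 0.0171). The block with no filter, added after the data were seen, gave the same counts except 3 for the growth to 30 min. The block changed no other call on that probe set.

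A fit on only the groups compared called 0 probe sets for IL-10 at 20 and at 30 min and for LPS at 30 against 10 min, and 1 for LPS plus IL-10 at 20 against 10 min. The differences of Socs3 1455899_x_at stayed at 2.53, 2.42 and 1.87, with adjusted p = 0.0804, 0.332 and 1.00. The call of this probe set for LPS at 30 against 10 min was lost, leaving 0 probe sets, under quantile normalisation (1.87, adjusted p = 0.0662), pseudocounts of 1 (1.90, 0.0505) and 64 (1.78, 0.0523), no intensity trend (1.87, 0.146) and with control probe sets kept (1.87, not called), the last added after the data were seen. Quantile normalisation, a pseudocount of 1 and no intensity trend each left 1 member called for the average over times. Every fit in this paragraph was run without the block only.

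Without both LPS arrays at 20 min from experiments 2 and 3, 0 probe sets were called for IL-10 at 20 min (Socs3 1455899_x_at 2.85, adjusted p = 0.108) and for LPS at 30 against 10 min (1.87, adjusted p = 0.101), and 1 for the average. The LPS array left at 20 min is then assumed to vary like the other groups. With the block, 2 were called for IL-10 at 20 min, 3 for IL-10 at 30 min, 3 for LPS at 30 against 10 min, 1 for the growth to 20 min (2.80) and 2 for the growth to 30 min (2.45). Leaving out the array of experiment 2 or of experiment 3 alone, with the block, gave growths of 2.64 and 2.59 to 20 min, 2 probe sets in each, and 2.45 to 30 min, 3 probe sets in each. Then 3 probe sets were called for IL-10 at 20 and 30 min and for LPS at 30 against 10 min, and 1 for LPS at 20 against 10 min without the experiment 3 array. Without the experiment 3 array and without the block, 0 were called for IL-10 at 20 min (2.51, adjusted p = 0.0528) and 1 for the average. Leaving out either array alone without the block also gave 0 for LPS at 30 against 10 min. Socs3 1455899_x_at was then 1.87, with limma adjusted p = 0.0717 without the experiment 2 array and 0.0911 without the experiment 3 array.

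Leaving out 1 experiment at a time without the block, 0 to 0 probe sets were called for IL-10 at 20 min and at 30 min and for LPS at 30 against 10 min, 0 to 2 for the average, 0 to 1 for LPS plus IL-10 at 20 against 10 min and 2 to 3 at 30 against 10 min. The values of Socs3 1455899_x_at ran from 2.40 to 2.75 for IL-10 at 20 min, 2.11 to 2.78 at 30 min, 1.38 to 1.84 for the average, 3.12 to 3.31 for LPS plus IL-10 at 20 against 10 min, 1.54 to 2.09 for LPS at 30 against 10 min, 2.14 to 2.77 for the growth to 20 min and 2.07 to 2.79 to 30 min. With the block, leaving out experiment 1 gave 0 probe sets for IL-10 at 20 min (2.45) and 30 min (2.37), 0 for LPS at 30 against 10 min (2.09), 1 for the average, 0 for both growths and a growth of 2.14 to 20 min. Leaving out experiment 2 gave 3, 3 and 2 probe sets for IL-10 at 20 and 30 min and LPS at 30 against 10 min (Socs3 1455899_x_at then 1.54, adjusted p = 0.155), 0 for the growth to 20 min and 1 for the growth to 30 min. Leaving out experiment 3 gave 3, 3 and 3 probe sets, 1 for LPS at 20 against 10 min, 2 for LPS at 30 against 20 min (Socs3 1455899_x_at 1.50, adjusted p = 0.0203), 1 for LPS plus IL-10 at 30 against 20 min, 2 for the growth to 20 min (2.77) and 2 to 30 min (2.48). Such fits have fewer arrays, and other causes of these changes were not tested. Low signal limits Socs1, 4 Socs2 probe sets and 1 of Socs7, which the filter left untested, and 3 arrays per group limit the rest.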
